A study of Mus musculus with 6 samples.

Results

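The HSP40 co-chaperones, or J-domain proteins, were taken as every gene of the deposited table whose name begins with Dnaja, Dnajb or Dnajc followed by a number, with a count in at least 1 library. All 44 matching genes of 22487 in the table met this, 4 in subfamily A, 13 in subfamily B and 27 in subfamily C. Subfamily B includes Dnajb6-ps10, which the deposited table describes as a pseudogene. The rule used names and detection only, not the difference between groups. Ovarian tissue of adult female wild-type rats was sequenced from 3 libraries of animals exposed to PM2.5 (fine airborne particles) collected in a cowshed and from 3 libraries of untreated controls. The titles of all samples give 30 days, whose meaning the labels leave unsaid, and the sources used here do not give the dose or route of exposure. The samples were treated as rat, which titles and Ensembl identifiers give, although their organism entry reads Mus musculus. The labels do not say whether replicate libraries are separate animals, so p-values measure only the spread between these samples, which may be technical.

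HSP40 proteins hand unfolded clients to HSP70 and, through the J domain, make HSP70 split ATP and close on the client. Subfamily A members resemble bacterial DnaJ throughout, subfamily B members keep the J domain and a glycine-rich stretch, and subfamily C members share little beyond the J domain. In steroid-producing tissue HSP40, HSP70 and HSP90 also assemble steroid hormone receptors into the state that binds hormone. Some members, such as Dnajb1, are induced by heat shock factor, and others, such as Dnajb9, by stress of the endoplasmic reticulum.

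The libraries held between 47662338 and 60749578 counts, of which the 44 members took between 0.202 and 0.207% in the PM2.5 libraries and between 0.207 and 0.224% in the controls. All 13 ovarian markers checked, among them Star, Fshr, Foxl2 and Zp3, passed the filter on low values. Dnaja1, Dnajb1 and Dnajb9, the genes that mark the family, were detected in all 6 libraries. A gene was tested when it averaged at least 0.5 FPKM (fragments scaled to transcript length and library total, the authors' value), which 41 members and 15303 genes in all did. Just inside this limit lay Dnajc28 at 0.741 FPKM, and just outside lay Dnajc6 at 0.476 FPKM. Dnajb7 and Dnajc5b, at 0.0347 and 0.0289 FPKM, were the remaining untested members.

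On the FPKM scale, on which genes of different length can be compared, 5 members averaged 40 FPKM or more over the 6 libraries. Another 6 lay between 20 and 40 FPKM, 13 between 10 and 20, 11 between 5 and 10, 5 between 1 and 5, 1 between 0.5 and 1, and 3 lower. The order at the top differed between the groups. Dnaja1, a farnesylated cytosolic partner of HSP70, was 5th in each PM2.5 library with 34.9, 35.0 and 33.1 FPKM, and 1st in each control with 69.8, 83.1 and 72.6 FPKM. Above it in the PM2.5 libraries stood Dnajc7, Dnaja2, Dnajc15 and Dnajc8, with group means of 58.9 ± 9.43, 53.4 ± 5.78, 48.4 ± 8.89 and 41.8 ± 3.11 FPKM (SD, n = 3 each). These 4 averaged 40.8 ± 7.76, 45.4 ± 4.41, 46.6 ± 14.3 and 40.7 ± 1.96 FPKM in the controls (SD, n = 3 each). Their ranks changed from control to control, Dnajc15 for example being 3rd, 6th and 2nd in controls 1 to 3, so no order among them was resolved there. Dnajb1 followed in 6th place in each PM2.5 library and held 6th, 3rd and 3rd place in controls 1 to 3.

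Summed over members, subfamily A had 147, 121 and 111 FPKM in PM2.5 libraries 1 to 3 and 149.6, 181 and 153 FPKM in controls 1 to 3. Subfamily B had 156, 154 and 156 FPKM in the PM2.5 libraries and 142, 186 and 164 FPKM in the controls. Subfamily C had 387, 404 and 419 FPKM in the PM2.5 libraries and 386, 367 and 377 FPKM in the controls. The groups did not overlap in subfamily A, where PM2.5 was below, or in subfamily C, where PM2.5 was above, each by a narrow margin, and subfamily B overlapped. These FPKM are scaled to library totals alone. TMM scaling factors between libraries, used for the counts below, ran from 0.963 in control 3 to 1.036 in control 2. Margins this narrow may not hold with them. The lower sum of subfamily A lay in Dnaja1, since without it the subfamily had 112, 86.1 and 78.3 FPKM in the PM2.5 libraries and 79.9, 97.4 and 80.4 FPKM in the controls. Dnaja1 made up 23.8, 28.9 and 29.7% of subfamily A in the PM2.5 libraries and 46.6, 46.0 and 47.5% in the controls. All 44 members together had 685 ± 5.09 FPKM in PM2.5 and 702 ± 28.9 FPKM in controls (SD, n = 3 each), a difference within the spread of the controls.

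**Figure D1:**
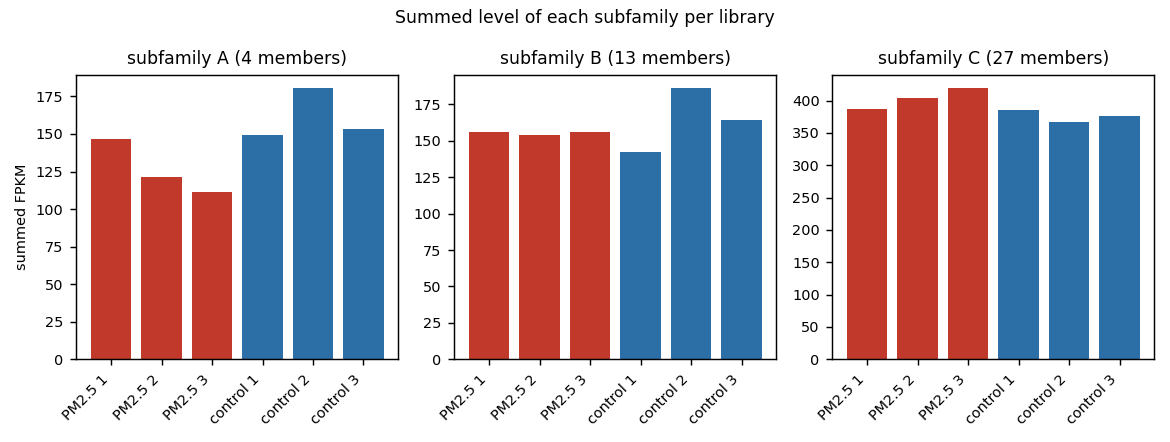
Summed FPKM of all members of subfamilies A, B and C, 1 bar per library, PM2.5 in red and control in blue. Subfamily A is lower in the PM2.5 libraries (111 to 147 FPKM) than in the controls (149.6 to 181 FPKM), subfamily B overlaps, and subfamily C is slightly higher in PM2.5. FPKM carry no TMM factors, with which the narrow gaps of A and C may not hold.

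Of the 41 tested members, 1 was called changed between PM2.5 and control ovaries and none was called higher. In counts simulated with 50 of 15303 genes changed at each fold tried, the fit called 2% of true 2-fold changes. The real counts may hold more changed genes, so this share may not carry over to them. A member without a call may still have changed. Dnaja1 had 116, 117 and 110.5 CPM (counts scaled to the library total, with TMM factors between libraries) in PM2.5 libraries 1 to 3, against 234, 268 and 253 CPM in controls 1 to 3. The groups lay far apart, with little spread inside either. Dnaja1 fell to 0.455 of the control level, a log2 fold change of -1.13 ± 0.13 (SE, adjusted p = 0.0434 in edgeR's quasi-likelihood test over all genes). Lower calls made up 0.738% of all tested genes, higher calls 0.19% and both together 0.928%, and 1 call in 41 members is too few to set a share of the family against these. In tissue samples, fewer cells that make a transcript and less transcript per cell cannot be told apart. The call was lost when any 1 library was left out, with adjusted p from 0.0661 to 0.23, while the log2 fold change stayed between -1.18 and -1.09. It was also lost by a small margin when no filter on low values was used (adjusted p = 0.0505). The deposited table places Dnaja1 on the plus strand of chromosome 5, start 55842426 and end 55853967, and the sources used here do not give the genome build.

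The other 40 members gave no call in edgeR's quasi-likelihood test. At an unadjusted p below 0.05 there were 7 members, against 20.9% of all tested genes, with 5 members lower, against 11.7% of all genes, and 2 higher, against 9.17%. The lower members were Dnaja1, Dnajb1, Dnajc14, Dnajc21 and Dnajc28 and the higher ones Dnajb6 and Dnajc7. The groups did not overlap in 9 members, against 27.2% of all tested genes, with PM2.5 below in 5 members, against 15.2%, and above in 4, against 12.1%. These counts are near the background, so they are no result about the family. Log2 fold changes were below 0 in 22 members and above 0 in 19, where 49.6% of all tested genes were below 0. The median log2 fold change was -0.0082 over the family, -0.047 over subfamily A, 0.031 over subfamily B and -0.035 over subfamily C, beside 0.0041 over all tested genes. The lowest and highest values were -1.13 and 0.23 in subfamily A, -0.86 and 0.62 in subfamily B and -1.47 and 0.53 in subfamily C. The 0.62 was that of the pseudogene Dnajb6-ps10. A difference under 1.5-fold in either direction was found for 36 of 41 members (87.8%), and for 70.9% of all tested genes. For 31 members the 95% interval of the log2 fold change lay wholly inside a 2-fold difference either way, and for 10, Dnaja1 and Dnajc28 among them, it reached beyond. DESeq2 called Dnaja1 and Dnajc28 and no other member, where 11.5% of all tested genes were called.

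**Figure D2:**
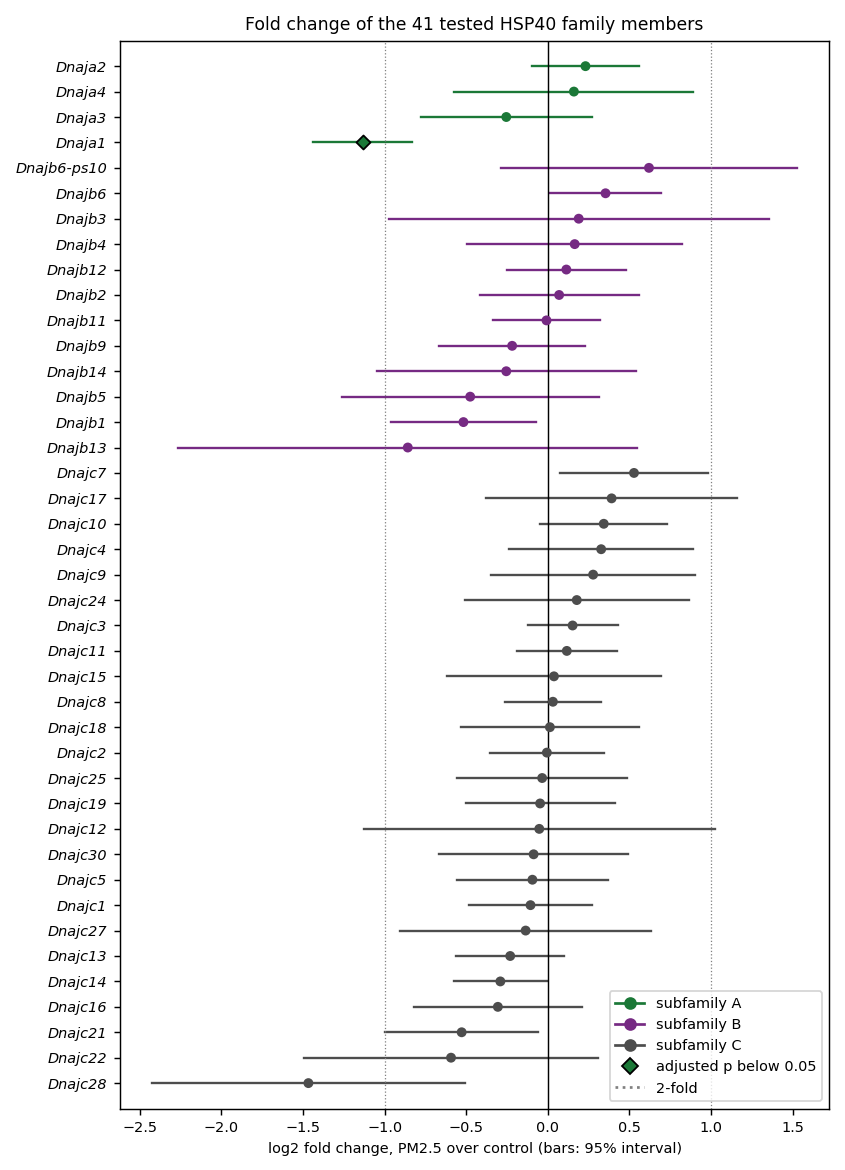
Log2 fold change of each of the 41 tested members, PM2.5 over control, with its 95% interval, grouped by subfamily (A green, B purple, C grey). The diamond marks Dnaja1, the member with an adjusted p below 0.05, and dotted lines mark a 2-fold difference.

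The cytosolic and nuclear members that bind clients for HSP70 held the 1 call and members whose groups lay apart in both directions. Dnaja2, another cytosolic subfamily A member, had 192, 159 and 161 CPM after PM2.5 exposure and 145, 154 and 137 CPM in controls. It was above every control in each PM2.5 library, yet its log2 fold change of 0.23 ± 0.14 did not pass (edgeR adjusted p = 0.381). The ratio of Dnaja1 to Dnaja2 on the FPKM scale was 0.581, 0.705 and 0.656 in the PM2.5 libraries and 1.54, 1.67 and 1.77 in the controls. Dnaja1 was thus the lower of the pair in every PM2.5 library and the higher in every control. Dnaja4, the remaining cytosolic member of subfamily A, had a log2 fold change of 0.16 ± 0.31.

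Dnajb1, the main heat-inducible HSP40, had 71.7, 73.7 and 80.1 CPM after PM2.5 exposure and 85.2, 103 and 134 CPM in controls. Each PM2.5 library was below each control, and the controls spread widely, with control 3 the highest. The log2 fold change was -0.52 ± 0.19 with an edgeR adjusted p of 0.191, so Dnajb1 did not pass, and without control 3 the value was -0.32. Its 95% interval ran from -0.96 to -0.075. Dnajb6, a suppressor of protein aggregation, had 96.4, 81.1 and 89.7 CPM after PM2.5 exposure and 66.5, 79.2 and 63.4 CPM in controls. Its groups were apart in the opposite direction to Dnajb1, and it did not pass either (log2 fold change 0.35 ± 0.14, edgeR adjusted p = 0.23). Dnajb6-ps10 on chromosome 1, described as a pseudogene of Dnajb6 though typed as protein-coding, may share reads with Dnajb6. It had 1.14, 1.25 and 1.67 CPM after PM2.5 exposure and 0.878, 0.978 and 0.788 CPM in controls. Its counts are uncertain for that reason, and its log2 fold change of 0.62 ± 0.38 did not pass. Dnajb2, which carries ubiquitin-binding motifs, had a log2 fold change of 0.07 ± 0.21, Dnajb4 of 0.16 ± 0.28 and Dnajb5 of -0.48 ± 0.33. Over the 8 tested members of this group 5 were above and 3 below the controls, with a median of 0.11.

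**Figure D3:**
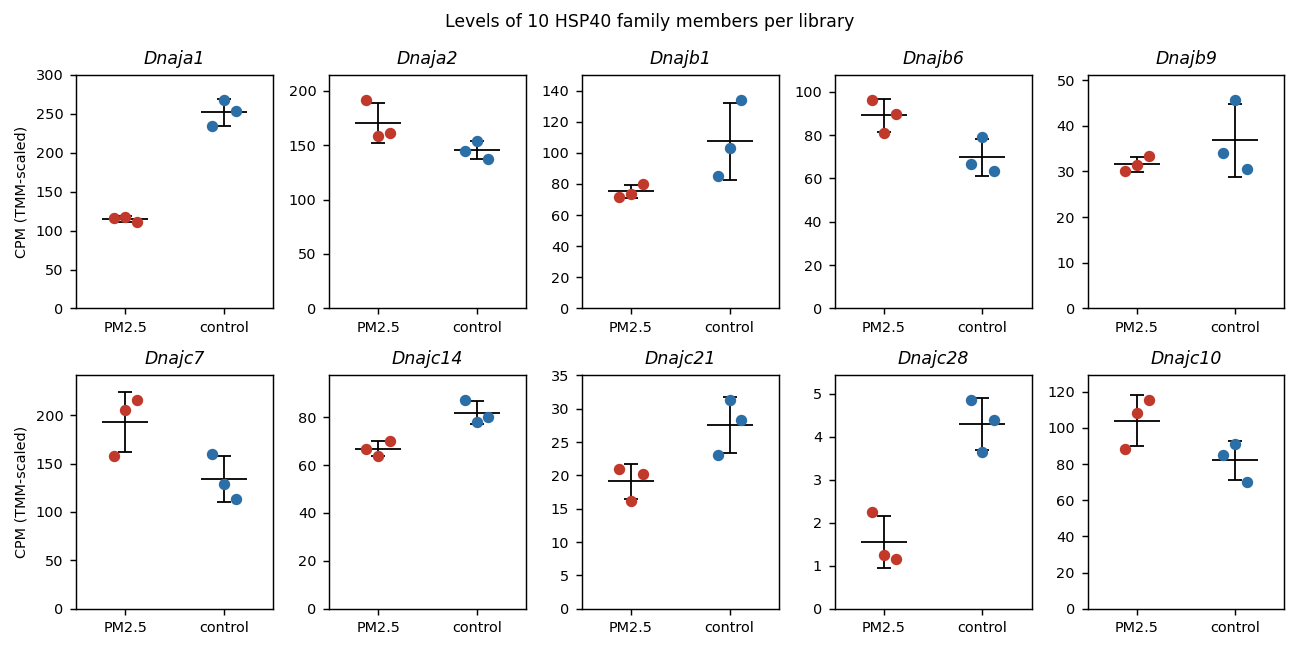
CPM per library of 10 members, PM2.5 (red) left of control (blue), with the mean and SD of 3 libraries in black and axes from 0. Dnaja1 shows the widest gap relative to its spread, Dnajb1, Dnajc14, Dnajc21 and Dnajc28 are lower in each PM2.5 library, and Dnajb9, Dnajc7 and Dnajc10 overlap.

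No member of the endoplasmic reticulum passed. All 9 placed in this group were tested, 3 above and 6 below the controls, with log2 fold changes from -0.31 to 0.34 and a median of -0.035, and none had an adjusted p below 0.05 in edgeR or DESeq2 or an unadjusted p below 0.05 in edgeR. Dnajc14 and Dnajc18, described further on, also sit in the membrane of the endoplasmic reticulum but were grouped with the scaffold members, and Dnajc14 had an unadjusted p of 0.0469 in edgeR's fit over all genes. Dnajb9, which is induced by the unfolded protein response and restrains its sensor IRE1, had 30.1, 31.3 and 33.4 CPM after PM2.5 exposure and 34.0, 45.7 and 30.6 CPM in controls. Control 2 was the highest and the groups overlapped, with a log2 fold change of -0.22 ± 0.19 (edgeR adjusted p = 0.537). Dnajc10, a disulfide reductase, had 88.5, 108 and 115 CPM after PM2.5 exposure and 84.9, 90.9 and 70.3 CPM in controls. These overlapped at PM2.5 library 1 and control 2, and the log2 fold change of 0.34 ± 0.16 did not pass (edgeR adjusted p = 0.286). Dnajc3, an inhibitor of the kinase PERK, had 60.3, 61.2 and 66.3 CPM after PM2.5 exposure and 56.0, 55.9 and 57.2 CPM in controls. Its groups were apart and the difference was small, with a log2 fold change of 0.15 ± 0.12 that did not pass. Dnajb11, which binds clients of the chaperone BiP in the lumen, was level at -0.0082 ± 0.14. The other members here were Dnajb12 at 0.11 and Dnajb14 at -0.25, both anchored in the membrane, Dnajc1 at -0.11, Dnajc16 at -0.31 and Dnajc25 at -0.035 on the log2 fold change scale.

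Of the 6 mitochondrial members 2 were above and 4 below the controls, with a median log2 fold change of -0.067. Dnajc28 had 2.25, 1.25 and 1.15 CPM in PM2.5 libraries, from 118, 76 and 57 counts, and 4.85, 3.64 and 4.38 CPM in controls, from 232, 186 and 217 counts. It had the most negative fold change of the family, -1.47 ± 0.40, and each PM2.5 library was below each control. It did not pass in edgeR's quasi-likelihood test (adjusted p = 0.128) and passed in DESeq2 (adjusted p = 0.0167). Dnaja3, the HSP40 of the mitochondrial matrix, had a log2 fold change of -0.25 ± 0.22, with 78.9 CPM in PM2.5 library 1 and 54.1 and 44.3 CPM in PM2.5 libraries 2 and 3, against 66.3 to 75.0 CPM in the controls. Dnajc15 and Dnajc19, which belong to the protein import motor of the inner membrane, stood at 0.04 ± 0.28 and -0.05 ± 0.19. Dnajc11, which associates with the cristae-forming MICOS complex, stood at 0.12 ± 0.13 and Dnajc30 at -0.09 ± 0.24. None of these passed.

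Dnajc21, which acts in maturation of the large ribosomal subunit, had 21.0, 16.2 and 20.2 CPM after PM2.5 exposure and 23.0, 31.3 and 28.4 CPM in controls. The groups were apart, and the log2 fold change of -0.53 ± 0.20 did not pass (edgeR adjusted p = 0.201). The other nuclear and ribosomal members were the ribosome-bound Dnajc2 at -0.0060 ± 0.15, the spliceosomal Dnajc8 at 0.03 ± 0.12, the histone co-chaperone Dnajc9 at 0.28 ± 0.26 and the splicing cofactor Dnajc17 at 0.39 ± 0.32. Dnajc9 and Dnajc17 spread most here, each with its lowest PM2.5 value in library 1. Dnajc7, which holds both HSP70 and HSP90 through its tetratricopeptide repeats, had 158, 205 and 216 CPM after PM2.5 exposure and 159.7, 129 and 113 CPM in controls. PM2.5 library 1 lay just below control 1 and the other libraries were apart. Its log2 fold change was 0.53 ± 0.19, the highest of subfamily C, and did not pass (edgeR adjusted p = 0.194).

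Dnajc14, which helps receptors leave the endoplasmic reticulum, had 66.8, 63.7 and 70.0 CPM after PM2.5 exposure and 87.2, 78.0 and 80.3 CPM in controls. The groups were apart with a log2 fold change of -0.29 ± 0.12, which did not pass (edgeR adjusted p = 0.234). Its gene model overlaps Ormdl2 on the other strand, and with the strand setting of the counting unknown its counts may hold reads of Ormdl2. Of all members 8 overlap a gene model on the other strand, among them Dnajb11 (Tbccd1), Dnajc17 (LOC691418), Dnajc19 (Fxr1) and Dnajc24 (Immp1l). Dnajc12, a co-chaperone of aromatic amino acid hydroxylases, stood at -0.05 ± 0.45, Dnajc18 at 0.01 ± 0.23, Dnajc24, which acts in diphthamide synthesis, at 0.18 ± 0.29 and Dnajc27 at -0.14 ± 0.33. Dnajc12 was carried by control 3, with 28.5 CPM against 8.35 to 18.5 CPM elsewhere. Dnajc13, which coats endosomes, had 62.9, 49.7 and 57.3 CPM after PM2.5 exposure and 62.3, 67.3 and 69.7 CPM in controls, overlapping at PM2.5 library 1, with a log2 fold change of -0.23 ± 0.14. Dnajc5, the cysteine string protein of secretory vesicles, stood at -0.09 ± 0.20. Dnajc22 had 12.1, 9.08 and 7.21 CPM after PM2.5 exposure and 10.9, 9.99 and 21.9 CPM in controls, where control 3 stood apart, with a log2 fold change of -0.59 ± 0.38. Dnajc4 stood at 0.33 ± 0.24, and its gene model overlaps that of Stip1 on the same strand, so its counts may hold reads of Stip1. None of these passed.

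The members known mainly from testis or cilia were low. Dnajb13, a radial spoke protein of motile cilia, had 2.42, 2.21 and 0.987 CPM after PM2.5 exposure and 1.40, 3.52 and 5.27 CPM in controls. The groups overlapped widely, with a log2 fold change of -0.86 ± 0.59 (edgeR adjusted p = 0.441). The 7 cilium markers in the table summed to 33.7 to 102 CPM in PM2.5 and 31.0 to 98.9 CPM in controls, with their lowest sum in control 3, where Dnajb13 was highest. Dnajb3 stood at 0.19 ± 0.49 and lies opposite Ugt1a8. Dnajb7 had 8, 9 and 4 counts in the PM2.5 libraries and 0 in each control. Its mean CPM in PM2.5 was 2.096 times a floor of 3 counts per control library, with the PM2.5 counts taken as exact. Without a filter Dnajb7 did not pass (edgeR adjusted p = 0.234). Its gene model overlaps Xpnpep3 on the other strand, and with the strand setting of the counting unknown its reads and those of Xpnpep3 cannot be told apart. Dnajc5b had 0 counts in each PM2.5 library, against 9 counts in control 2 and 0 in the other controls. Dnajc6, the neuronal auxilin that uncoats clathrin vesicles, had 5.70, 4.37 and 5.30 CPM after PM2.5 exposure and 2.95, 1.64 and 4.10 CPM in controls. Its groups were apart, it was under the filter, and without a filter its log2 fold change was 0.82 ± 0.42 (edgeR adjusted p = 0.385).

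**Figure D4:**
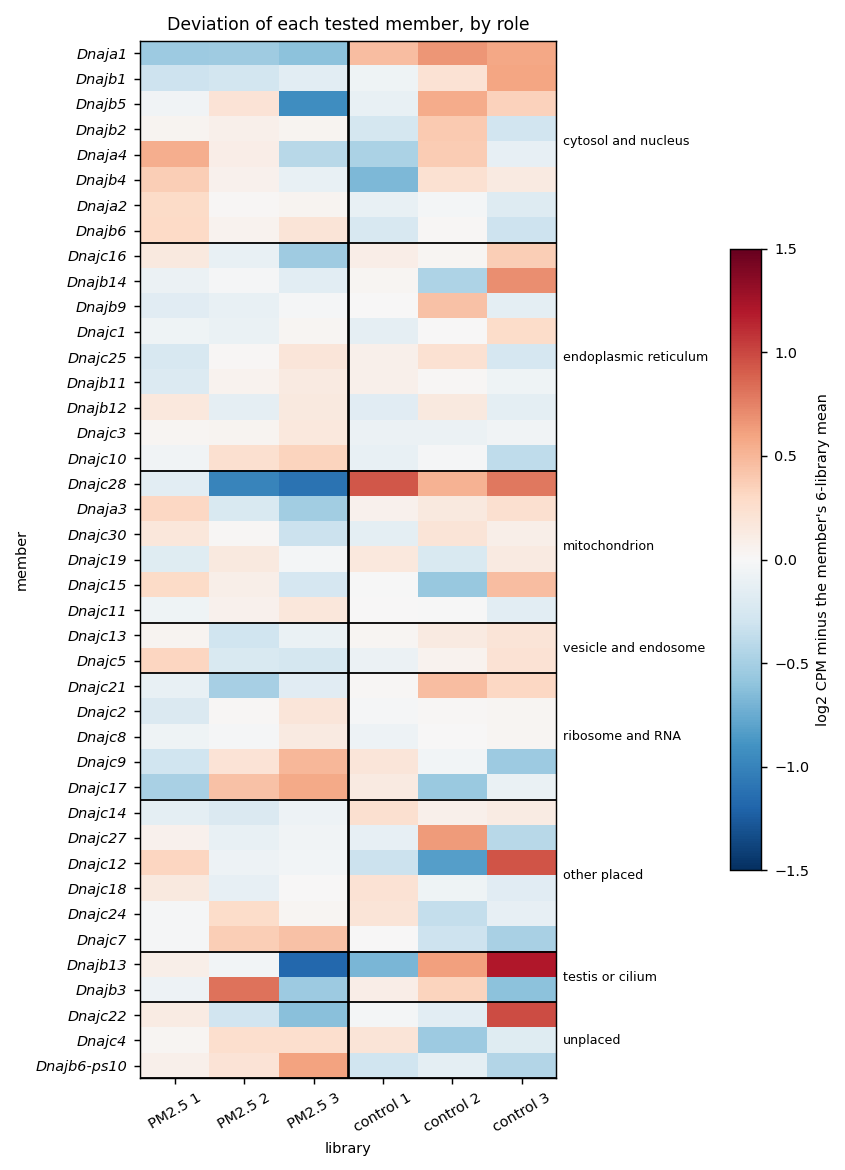
Deviation of each tested member in each library from its own mean over the 6 libraries, in log2 CPM, PM2.5 libraries left of the black line and controls right, rows grouped by role. Dnaja1 is uniformly low in PM2.5 and high in controls, whereas single libraries such as control 3 for Dnajc12 and Dnajc22 stand out.

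No library stood out in the median deviation over the whole family. Relative to each member's own mean over the 6 libraries, the median deviation of the 41 members lay between -0.026 and 0.015 in the PM2.5 libraries and between -0.011 and 0.027 in the controls, in log2 CPM. Over all tested genes, which TMM scaling centers, it lay between -0.011 and 0.014. Subfamily A ran from -0.47 in PM2.5 library 3 to 0.30 in PM2.5 library 1. Subfamily B ran from -0.14 in control 1 to 0.22 in control 2, and subfamily C from -0.023 to 0.029. The highest library of a member was most often PM2.5 library 3, in 10 members, and the lowest most often control 3, in 12. The coefficient of variation between libraries had a median over members of 13.4% in PM2.5 and 14.8% in controls.

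Of 15 genes of the HSP70 family, the partners of these members, 3 fell, none rose and 12 did not pass, where lower calls made up 0.738% of all tested genes. Their median log2 fold change was -0.83 beside 0.0041 over all tested genes. Members of the list that act in the cytosol differed among themselves, with Hspa2 at 0.091 ± 0.47, Hspa4 at 0.087 ± 0.15 and Hspa4l at -0.37 ± 0.44, whose groups overlapped. Hspa1a stood at -4.83 ± 1.56, Hspa1l at -1.80 ± 0.56, Hspa12a at -1.09 ± 0.38, Hspa12b at -1.49 ± 0.28 and Hspa14 at -0.83 ± 0.24. In all of these each PM2.5 library was below each control, and none passed. Hspa1b, the stress-induced HSP70, had 14.1, 17.4 and 6.67 CPM after PM2.5 exposure and 169, 430 and 728 CPM in controls. Hspa8, the constitutive cytosolic HSP70, had 958, 933 and 1064 CPM after PM2.5 exposure and 2053, 2118 and 2673 CPM in controls. Hsph1, an exchange factor that resets HSP70, had 38.9, 41.6 and 41.2 CPM after PM2.5 exposure and 73.8, 106 and 124 CPM in controls. Log2 fold changes were -5.12 ± 0.66, -1.21 ± 0.19 and -1.32 ± 0.20, with edgeR adjusted p of 0.0434, 0.0463 and 0.0463. As with Dnaja1, each of these 3 calls was lost when any 1 library was left out (adjusted p from 0.0706 to 0.249) and when no filter was used (0.0505 to 0.0584), while the log2 fold changes stayed negative. Those of Hspa8 and Hsph1 were also lost with edgeR's filterByExpr (0.0512 and 0.052), and that of Hsph1 with limma on log2(FPKM + 1) (0.0505). Among the controls, control 1 was the lowest and control 3 the highest for Hspa1b, Hspa8, Hsph1 and Dnajb1, whereas Dnaja1 was highest in control 2.

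Set against their HSP40 partners on the FPKM scale, Hspa1a, Hspa1b and Hspa8 together had 1.63, 1.77 and 2.07 times the summed level of the 8 cytosolic and nuclear members in PM2.5 libraries, and 3.78, 3.54 and 5.04 times in controls. Hspa1a and Hspa1b are near-identical copies whose reads may be split. The summed level of those 8 members overlapped, with 186 to 215 FPKM in PM2.5 and 207 to 271 FPKM in controls, whereas the 3 HSP70 genes summed to 343 to 385 FPKM in PM2.5 and 783 to 1172 FPKM in controls. In the endoplasmic reticulum, Hspa5 (BiP) had 2.57, 2.87 and 2.90 times the summed level of the 9 members of that group in PM2.5 libraries and 2.86, 2.58 and 1.95 times in controls, which overlapped. That sum includes Dnajb12 and Dnajb14, whose J domain faces the cytosol. In mitochondria Hspa9 had 0.785, 0.618 and 0.701 times the level of the 6 mitochondrial members in PM2.5 libraries and 0.531, 0.853 and 0.463 times in controls, which overlapped too. Hspa5 at 0.22 ± 0.21 and Hspa9 at 0.21 ± 0.22 did not pass. These ratios, and that of Dnaja1 to Dnaja2, were chosen after the values were seen.

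**Figure D5:**
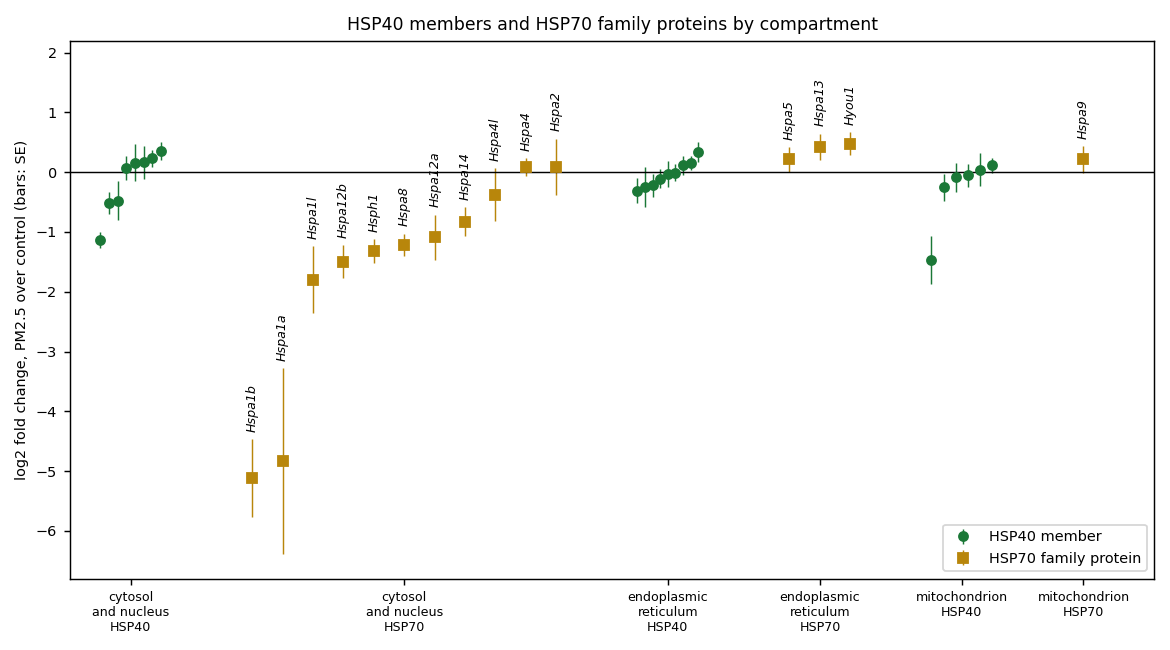
Log2 fold change, PM2.5 over control, with its SE, of the HSP40 members (green circles) and of the 15 HSP70 family proteins (ochre squares) of the cytosol and nucleus, the endoplasmic reticulum and the mitochondrion. In the cytosol Hspa1a, Hspa1b, Hspa1l, Hspa8, Hspa12b and Hsph1 lie at or below -1.21, and Hspa12a and Hspa14 at -1.09 and -0.83. Hspa2, Hspa4 and Hspa4l lie between -0.37 and 0.091, whereas Hspa5 and Hspa9 lie slightly above 0.

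Among the cofactors of HSP70, 1 of 15 measured genes fell, where lower calls made up 0.738% of all tested genes. It was Hsph1, already counted among the HSP70 genes, and the median over the cofactors was -0.17. Bag1, an exchange factor, stood at -1.01 ± 0.20, the HSP70-HSP90 adaptor Stip1 at -0.34 ± 0.13 and the exchange factor Hyou1 of the endoplasmic reticulum at 0.48 ± 0.19, and none of these passed. Among J-domain proteins with other names, the log2 fold changes of Hscb at 0.24, Gak at 0.19 and Sec63 at -0.0090 did not pass.

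Of 22 heat shock factor targets and regulators 3 fell and 19 did not pass, where lower calls made up 0.738% of all tested genes. The 3 were Hspa1b, Hspa8 and Hsph1, already counted among the HSP70 genes, and the median of this list was -0.29. At an unadjusted p below 0.05 in edgeR this list had 8 lower genes, the 3 calls included, and 2 higher ones. Among the lower, Hsp90aa1 at -0.75 ± 0.18 and Ahsa1 at -0.45 ± 0.12 had each PM2.5 library below each control and did not pass. The higher ones were the small heat shock proteins Hspb8 at 2.21 ± 0.83 and Cryab at 1.06 ± 0.40, which did not pass either. Hspb8 was high only in PM2.5 libraries 1 and 2 (42.0 and 44.3 CPM). PM2.5 library 3, at 4.17 CPM, lay inside the control range of 3.29 to 9.35 CPM. Chordc1, an HSP90 cofactor, stood at -0.83 ± 0.14 (edgeR adjusted p = 0.0581). Of 26 folding and stress genes of the endoplasmic reticulum 1 fell, against the same 0.738% of all tested genes. It was Manf, with 1.64, 3.76 and 3.10 CPM in PM2.5 libraries, against 53.3, 19.7 and 27.0 CPM in controls. The median of that list was 0.17, with Ddit3 at -1.18 ± 0.25, Syvn1 at -0.72 ± 0.17 and Pdia6 at 0.77 ± 0.23, none of which passed.

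Other markers moved with the groups beside Dnaja1. All 15 tested immediate early genes had negative fold changes, 2 of which passed, where lower calls made up 0.738% of all tested genes. The 15 genes of that list in the table summed to 684 to 1121 CPM in PM2.5 and 1121 to 4888 CPM in controls, PM2.5 library 1 and control 1 being level. Their highest sum was in control 2, in which Dnaja1 was also highest, at 268 CPM. Of 6 tested erythroid markers 3 rose, where higher calls made up 0.19% of all tested genes. The erythroid list summed to 2737 to 4268 CPM in PM2.5 and 788 to 1045 CPM in controls. Ahsp at 0.27 ± 0.45, Hba-a3 at -0.14 ± 0.40 and Epor at -1.06 ± 0.62 did not pass. The 6 adipocyte markers summed to 42.1 to 86.7 CPM in PM2.5 and 19.7 to 32.0 CPM in controls, and the 7 T and NK cell markers to 15.2 to 16.5 CPM in PM2.5 and 35.0 to 64.7 CPM in controls. Of 5 tested T and NK cell markers 1 fell, against 0.738% of all tested genes. It was the granzyme gene Gzmb, with 0.858 to 2.42 CPM in PM2.5 and 11.98 to 43.0 CPM in controls, while Cd3e, Cd3d, Cd2 and Nkg7 overlapped. Prf1 and Ptprc, at log2 fold changes of -1.44 ± 0.48 and -0.72 ± 0.26, were below each control in each PM2.5 library and did not pass. The adipocyte hormone Lep was at 0 in PM2.5 library 2 and in control 3, and the lipid droplet gene Cidec was at 0 in control 1. Macrophage markers overlapped, with 55.8 to 96.7 CPM in PM2.5 and 63.1 to 75.4 CPM in controls. No ovarian marker passed, and only Bmp15 had groups apart, with PM2.5 above. Control 3 was the lowest of the 6 libraries for Fshr, Amh, Inha, Gdf9, Zp3 and Bmp15 and the highest for Star. For Zp3 it had 5.17 CPM, against 27.3 and 31.3 CPM in controls 1 and 2. Over all genes, 0 to 7 were called with a library left out, so at most 7 of the 142 calls could stay. The part of these in the Dnaja1 result was not tested.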

How the data were processed

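Per the labels' protocols, poly(A) RNA was copied with dUTP, which marks strand, and sequenced from both ends. Per the submitters' processing notes, the tools were HISAT2 2.2.1, StringTie 2.1.6, cutadapt 1.9, edgeR and DESeq2, whose roles are not stated. The sources used here do not give the genome build, annotation or strand setting. The deposited counts are whole numbers per gene and library, and FPKM is the authors' value per kilobase and library total, per the file headers. The ratio of CPM to FPKM was taken without TMM factors. For the 42 members with a value in every library it varied by 1.02 to 1.03 times between libraries. Before TMM factors both thus carry the same measurement, and the CPM printed here also carry these factors (0.963 to 1.036).

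edgeR 4.0.16 in R 4.3.3 was run on the deposited counts with TMM factors, glmQLFit and glmQLFTest on genes whose mean over 6 libraries reached 0.5 FPKM. Tests were two-sided, and Benjamini-Hochberg adjustment ran over all 15303 genes, with a threshold of 0.05 on the adjusted p-value. The SE is the log2 fold change over the square root of F, and 95% intervals use edgeR's total degrees of freedom. A floor of 3 counts covers counting error only. limma 3.58.1, DESeq2 1.42.0, other scalings and filters, blocking on library number and leave-one-out fits were alternatives. The reported fit was tested on simulated counts with 50 genes changed at each fold tried. It called 2% of them at 1.5-fold, 2% at 2-fold, 68% at 4-fold and 82% at 8-fold. Of its 85 calls in all, 8 were of genes left unchanged. In the simulation all other genes were unchanged, whereas on the real counts 20.9% of tested genes had an unadjusted p below 0.05 in edgeR. The shares recovered may thus not carry over to the real counts. Libraries of a group differed by more than sampling noise (chi-square per degree of freedom of 135 or more). Values in every library are given for members that passed, the 12 with the smallest p, Dnaja1, Dnajb1 and Dnajb9, the highest member of each subfamily and the member with the smallest p of each role. Partner lists give up to 4 members each by smallest p, and further members picked with their values in view. Members and lists were chosen with earlier results of these data known. Per-library values of any other gene were picked with its values in view. Mouse reference sequences were not used. Results for some genes of the partner and marker lists are not reported here.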

Additional observations from a re-analysis of the deposited data

How the results depend on the processing

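Each of 6 scaling, filter or unit alternatives (median-of-ratios, upper-quartile and library-size scaling, a mean of at least 1 FPKM, and limma on log2(FPKM + 1) and on log2(FPKM + 0.1)) kept all counts of calls within 1.5 times. The genes changed numbered 142, and were 87 under filterByExpr, 8 when every gene was kept, 1767 by DESeq2, and from 0 to 7 in leave-one-out fits. The members changed numbered 1, and were 0 when every gene was kept, 2 by DESeq2, and 0 in each leave-one-out fit. With fewer samples the test has less to work with, and the cause of the other shifts was not tested. With 7 members at an unadjusted p below 0.05, leaving out a library gave 2 to 7. The median log2 fold change ranged from -0.31 to 0.093 for subfamily A, from -0.12 to 0.11 for subfamily B and from -0.058 to 0.013 for subfamily C with a library left out. For subfamily C it was -0.0083 and -0.0093 with the 2 limma settings. Same-numbered libraries correlated in their deviations at -0.18, 0.16 and 0.093, not every library correlated best with its own number, and the labels give no pairing. With the replicate block, 1 gene and 0 members changed, 3 members had an unadjusted p below 0.05, the adjusted p of Dnaja1 was 0.131 and the subfamily C median was -0.015. Of 655 values of single members none turned a called direction, 8 lost the call of Dnaja1, 1 gained one (Dnajc28 with DESeq2), and 38 changed the sign of an uncalled value. Of 1101 values of partner genes none turned a called direction, 35 lost a call and 11 gained one. Depth limits Dnajb7 and Dnajc5b, which rest on 21 and 9 counts in all.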
